A study of Mus musculus with 6 samples.

Results

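Annexins are cytoplasmic proteins that bind to negatively charged phospholipids of membranes in the presence of calcium. Each combines a conserved core, which holds the calcium and lipid binding sites, with a short head that differs between family members and binds partners such as the S100 proteins. In myeloid cells they are known for limiting inflammation, for plasminogen activation at the cell surface, for vesicle traffic and for the repair of torn membranes. RNA-seq of mouse blast crisis chronic myeloid leukemia (bcCML) was used to ask how 8 annexin genes (Anxa1 to Anxa7 and Anxa11) differed between WT and Sdc1-/- leukemia. Sdc1 encodes Syndecan-1, a heparan sulfate proteoglycan of the cell surface. The 8 genes were found by symbol among the 36083 genes of the deposited table, all 8 were listed and all 8 had a mean value of at least 1, the minimum for testing.

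The libraries came from Lin- bcCML cells, the leukemic cells without markers of mature blood lineages, sorted from the spleens of recipient mice, which the labels give as NSG and the study's methods for primary transplants as another strain. Donor KLS cells, a bone marrow fraction rich in stem cells, came from WT or Sdc1-/- mice, both on a B6 background, and carried BCR-ABL and NUP98-HOXA9, 2 fusion oncogenes delivered by retrovirus to both groups. The Sdc1-/- allele disrupts the signal peptide sequence, there are 3 libraries in each group, and the ages of the donor and recipient mice of these libraries are not given in the labels. The labels do not say whether the 3 libraries of a group came from separate mice, and the study's own text calls WT libraries technical replicates, so p-values measure the spread between these libraries, which may be technical.

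Values are TPM, a measure of transcript abundance corrected for transcript length, rescaled between libraries by the authors, so that the sums ran from 944973 to 1058263, and read depth is unknown. Sdc1 itself stood at 1.21 to 1.75 among libraries labelled WT, against 3.81 to 4.12 among those labelled Sdc1-/-, higher where the label says knockout (0.99 on the log2 scale, limma adjusted p = 1.2e-04). The groups are therefore called by their labels throughout. Ddx3y and Eif2s3y, genes of the Y chromosome named after their values were seen, were at or below 0.0158 in every library labelled WT and between 12.1 and 49.8 in every library labelled Sdc1-/-, so sex of the cells and group cannot be told apart. Of 12 markers of the leukemic progenitors 12 were tested, 8 lower and 4 higher. Among the 8 were Ptprc (the pan-leukocyte antigen CD45) and Mpo (myeloperoxidase). The 4 were Kit, Meis1, Myb and Msi2, with log2 fold changes of 0.18, 1.07, 0.37 and 0.24. The summed value of the 12 was 1291 to 1386 in WT and 989 to 997 in Sdc1-/- libraries. Mpo, Elane, Prtn3 and Ctsg, all lower, had the largest values in this sum. Pax5, Cd3e, Cdh5 and Pdgfra, which are markers of B cells, T cells, endothelium and stroma, each had a mean below 1. Of 7 markers of T and NK cells and of 6 markers of B cells 1 each was tested and not called, Klrb1c and Cd79b. Their means were 7.025 and 2.29 in WT and 6.37 and 2.12 in Sdc1-/- libraries. Of 9 markers of endothelium and stroma 3 were tested, 2 lower and 1 higher. Pecam1 (15.3 in WT and 12.9 in Sdc1-/- libraries) and Pdgfrb (7.31 and 4.18) were lower, and Col1a2 (18.8 and 23.2) was higher. Of the genes tested, 60.7% were called by limma in one direction or the other, 31.3% lower and 29.3% higher in the libraries labelled Sdc1-/-, and 66.7% had groups that did not overlap.

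Of the 8 annexins, 6 fell and 0 rose at an adjusted p under 0.05 (limma, Benjamini-Hochberg over all 12155 genes tested). Over all genes tested, 31.3% were called lower and 29.3% higher. The 6 were Anxa1, Anxa2, Anxa3, Anxa4, Anxa6 and Anxa11, and each was lower in every library labelled Sdc1-/- than in any library labelled WT. Anxa5 and Anxa7 did not pass the test. On the log2 scale the median change of all 8 was -0.77, against -0.01 over all genes tested. The groups did not overlap in 7 of the 8, where 66.7% of all genes tested had no overlap. When all libraries were brought to a sum of 1000000, the 6 remained lower and 1, Anxa5, was called higher. The plot of fold changes shows each gene under both scalings.

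**Figure D1:**
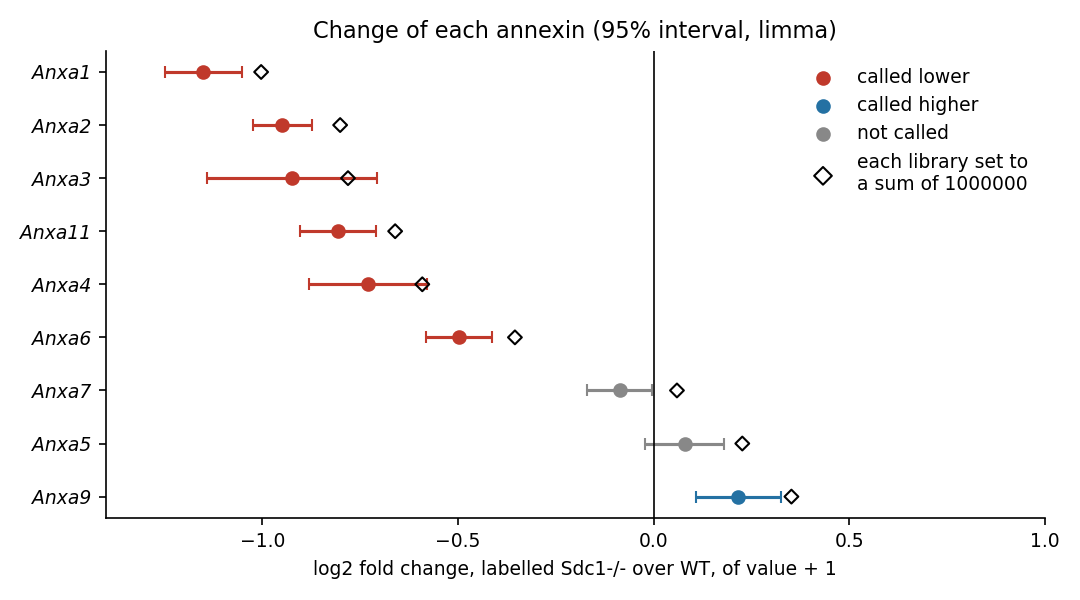
The x axis gives the log2 fold change of value + 1 of each annexin, libraries labelled Sdc1-/- over WT, with its 95% interval from limma (3 libraries in each group), and open diamonds give the same after all libraries were brought to a sum of 1000000. Of the 8 genes, 6 lie left of 0 under both scalings, Anxa7 moves from -0.09 to 0.06, and Anxa5 and Anxa9 lie right of 0 under both.

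Anxa1 encodes annexin A1, a glucocorticoid-induced protein that limits neutrophil recruitment and acts through formyl peptide receptors. It lies at positions 20373428 to 20390944 of chromosome 19, minus strand (GENCODE M21, GRCm38). Its values were 352, 349 and 325 among libraries labelled WT, against 150.4, 158.9 and 150.9 among those labelled Sdc1-/-. Every library of the second group lay below every library of the first. The mean went from 342 ± 14.6 to 153 ± 4.78 (SD, n = 3 per group), which is 2.23-fold lower. By limma it changed by -1.15 ± 0.041 on the log2 scale (± SE, adjusted p = 2.4e-06), the largest of the 8, and 2.21% of all genes tested had a lower one. It ran from -1.19 to -1.0032 over the 14 alternative settings.

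Anxa2 encodes annexin A2, which forms a complex with S100a10 at the plasma membrane that binds plasminogen and its activator. It lies at positions 69453620 to 69491795 of chromosome 9, plus strand. The values of the libraries labelled WT were 246, 243 and 233, and those of the libraries labelled Sdc1-/- were 126, 124 and 122. The groups were far apart beside a spread within each of them that was small, with means of 241 ± 6.70 and 124 ± 2.05 (SD, n = 3 per group). By limma it changed by -0.95 ± 0.032 on the log2 scale (± SE, adjusted p = 1.8e-06).

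The RefSeq promoter table (GRCm38.p6) held 8 windows of 300 bases for 6 of the 8 members, with none for Anxa3 and Anxa6. They were searched on both strands for TATAAA (the TATA box), TTGCNNAA (C/EBP factors) and GAGGAAG (PU.1), 3 motifs of myeloid or core promoters that do not overlap with each other in these windows. TATAAA stood in the windows of Anxa1 and Anxa2 only, the members with the highest WT level, and in 13.6% of all 32851 windows. TTGCNNAA was found in Anxa1 and in 1 of the 2 windows of Anxa4, against 10.8% of all windows, and GAGGAAG in 0 of the 8, against 13.6%. The window of Anxa1 held 3 CpG and that of Anxa2 13, where the median over all windows was 7. The motifs of both genes are shown with 10 bases on either side, 5′ to 3′ on the strand of the gene, with the motif in capitals. All 300 bases of the Anxa1 window and 113 of those of the Anxa2 window also lie in annotated exons, and both start sites are those of RefSeq. The motifs shown for Anxa1 and Anxa2 all lie downstream of the GENCODE starts of the genes given above. For Anxa1, on the minus strand, that start is the higher position. A match is a run of letters and says nothing about a factor.
Anxa1 TATA box, chr19:20390688-20390713, minus strand, 32 bases before the start site: gttcatatccTATAAAatcaggagtc
Anxa1 C/EBP (motif on the opposite strand), chr19:20390797-20390824, minus strand, 143 bases before the start site: ccgggagtagTTTTGCAAgacttgtttc
Anxa2 TATA box, chr9:69453656-69453681, plus strand, 17 bases before the start site: atggggcgggTATAAAagccccaccc

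Anxa3, whose product is abundant in granules of neutrophils, lies at positions 96793339 to 96845966 of chromosome 5, plus strand. Its values were 38.4, 44.2 and 45.7 among libraries labelled WT, against 24.5, 22.02 and 19.7 among those labelled Sdc1-/-. The groups did not overlap, and on the log2 scale its standard error was the largest of the 8 members. By limma it changed by -0.92 ± 0.092 on the log2 scale (± SE, adjusted p = 1.5e-04).

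Anxa4, at positions 86736840 to 86793584 of chromosome 6, minus strand, encodes a membrane-ordering annexin best known from epithelia. It was the lowest of the 8 members, at 19.9, 21.2 and 20.8 among libraries labelled WT, against 12.4, 10.9 and 12.8 among those labelled Sdc1-/-. By limma it changed by -0.73 ± 0.064 on the log2 scale (± SE, adjusted p = 8.3e-05). Anxa6, at positions 54979108 to 55033445 of chromosome 11, minus strand, encodes a larger annexin of endosomes and the plasma membrane. Its 3 libraries labelled WT had values of 27.9, 27.1 and 27.5, and its 3 libraries labelled Sdc1-/- had 19.7, 19.1 and 18.8. This was the smallest fall among the 6, 1.43-fold, with -0.50 ± 0.036 on the log2 scale (± SE, limma adjusted p = 3.4e-05).

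Anxa11 encodes an annexin with a long head that binds Pdcd6 and links RNA granules to lysosomes, and it lies at positions 25842156 to 25886804 of chromosome 14, plus strand. Its values were 85.8, 79.0 and 86.0 among libraries labelled WT, against 47.2, 47.0 and 47.7 among those labelled Sdc1-/-. By limma it changed by -0.81 ± 0.041 on the log2 scale (± SE, adjusted p = 7.7e-06). The gene has a near copy, the pseudogene Gm2260 on the same chromosome, which shares 627 of the 4160 distinct words of 31 bases in Anxa11 transcripts, so the split of reads between them is uncertain. Gm2260, named for these shared words, stood at 17.3, 20.4 and 17.4 and at 21.3, 22.8 and 17.5 in the same order, with groups that overlap. The sum of both went from 102 ± 2.22 to 67.9 ± 2.36 (SD, n = 3 per group), and these groups did not overlap. The other 7 members shared from 0% to 3.20% of their words with other genes and 0 with each other. Antisense or intergenic RNA genes lie opposite 98 of the 3731 exonic bases of Anxa2, 75 of the 4645 of Anxa4 and 113 of the 4135 of Anxa11. On the same strand, Gm42603 overlaps 112 of the 3643 exonic bases of Anxa3, which strand cannot separate.

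Anxa5 encodes annexin A5, the protein whose binding to exposed phosphatidylserine is used to stain dying cells. It lies at positions 36448923 to 36475894 of chromosome 3, minus strand. Its values were 139, 127 and 132 among libraries labelled WT, against 141, 144 and 135 among those labelled Sdc1-/-, and the groups overlapped. The log2 fold change was 0.08 (95% interval -0.02 to 0.18, adjusted p = 0.149 from limma), which bounds a fall at -0.02. With all library sums brought to 1000000 the log2 fold change was 0.23 with an adjusted p of 0.00206 from limma, and after quantile normalization 0.16 with an adjusted p of 0.0135. Over all 14 alternatives it stayed above 0.

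Anxa7, at positions 20455260 to 20480133 of chromosome 14, minus strand, encodes synexin, which fuses membranes during secretion. Its values were 62.8, 58.4 and 60.3 among libraries labelled WT, against 56.5, 57.2 and 57.0 among those labelled Sdc1-/-. The groups did not overlap, but lay close together. The log2 fold change was -0.09 (95% interval -0.17 to -0.003, unadjusted p = 0.0443 and adjusted p = 0.0694 from limma) and missed the threshold. Its direction rested on the scaling, since with all library sums brought to 1000000 it was 0.06, and without replicate 2 of WT it was -0.11 with an adjusted p of 0.0346 from limma.

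**Figure D2:**
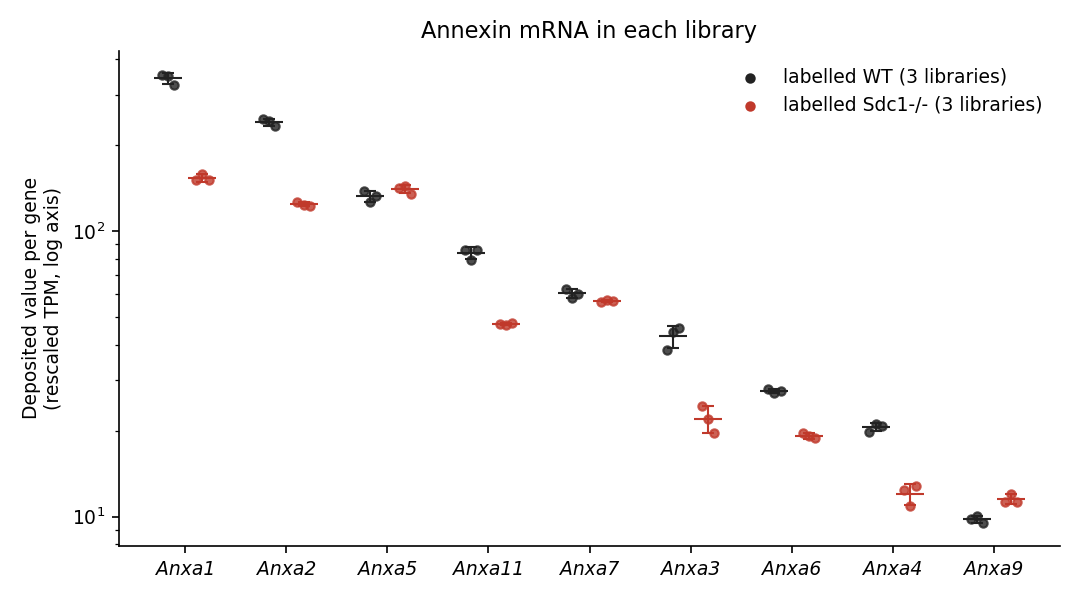
The y axis gives the deposited value (rescaled TPM, log axis) of 9 annexins in each of the 6 libraries, with the mean and SD of each group of 3. The groups are apart for Anxa1, Anxa2, Anxa3, Anxa4, Anxa6 and Anxa11, close for Anxa7, and overlap for Anxa5.

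TPM values are corrected for length, so levels can be set side by side between genes. In the libraries labelled WT the order of mean levels was Anxa1, Anxa2, Anxa5, Anxa11, Anxa7, Anxa3, Anxa6 and Anxa4, and no neighbours in this order overlapped. In the libraries labelled Sdc1-/- it was Anxa1, Anxa5, Anxa2, Anxa7, Anxa11, Anxa3, Anxa6 and Anxa4. Anxa5 thus stood above Anxa2, and Anxa7 above Anxa11 as deposited. The place of Anxa11 depends on how reads were split with Gm2260. The sum of Anxa11 and Gm2260 was 65.3 to 69.9 in the libraries labelled Sdc1-/-, above Anxa7 at 56.5 to 57.2. The values of Anxa3 and Anxa6 overlapped across libraries, although within each of the 3 libraries Anxa3 was the higher. Anxa1 stood 1.42-fold above the next gene, Anxa2, in the first group, and 1.10-fold above the next gene, Anxa5, in the second.

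The summed level of the 8 members was 971, 949 and 931 among libraries labelled WT, against 578, 583 and 564 among those labelled Sdc1-/-, 1.65-fold lower. A share of this sum is taken within a library and does not depend on the scaling between libraries. Anxa1 made up 36.0% ± 0.95 of the sum in WT and 26.7% ± 0.62 in Sdc1-/- libraries (SD, n = 3 per group), and Anxa2 25.3% ± 0.29 and 21.6% ± 0.33. Anxa5 made up 14.0% ± 0.51 and 24.4% ± 0.39, and Anxa7 6.37% ± 0.18 and 9.90% ± 0.17 (SD, n = 3 per group). In these 4 genes the shares of the groups did not overlap. Those of Anxa6 did not overlap either, at 2.90% ± 0.054 and 3.34% ± 0.067 (SD, n = 3 per group). Those of Anxa3, Anxa4 and Anxa11 overlapped, at 8.80% ± 0.46 and 8.23% ± 0.20 for Anxa11, at 4.51% ± 0.49 and 3.83% ± 0.38 for Anxa3 and at 2.17% ± 0.11 and 2.10% ± 0.21 for Anxa4 (SD, n = 3 per group). The share of Anxa11 also depends on its split of reads with Gm2260.

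**Figure D3:**
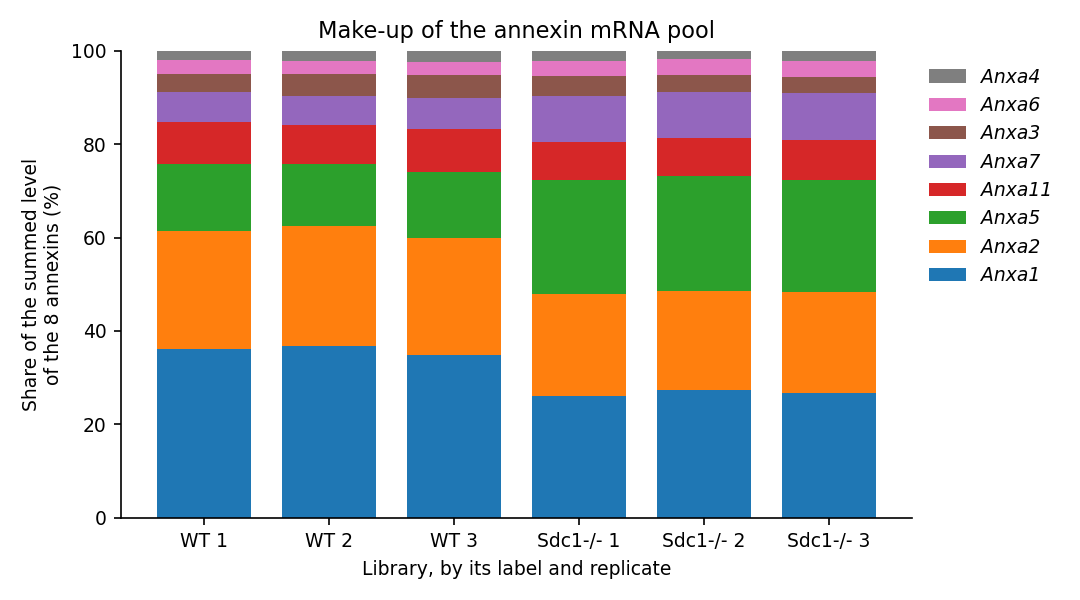
Each bar is 1 library and shows, as a percent of the summed level of the 8 annexins, the share of each gene. The share of Anxa1 is 34.9% to 36.8% among libraries labelled WT, against 26.0% to 27.3% among those labelled Sdc1-/-, and that of Anxa5 has means of 14.0% and 24.4%.

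Of Anxa8, Anxa9 and Anxa10, which the table also lists, Anxa9, an annexin known for weak calcium binding, had a mean of at least 1. Its values were 9.82, 10.03 and 9.50 among libraries labelled WT, against 11.3, 12.0 and 11.3 among those labelled Sdc1-/-, without overlap. By limma it changed by 0.22 ± 0.046 on the log2 scale (± SE, adjusted p = 0.00557), opposite in direction to the 6 members that fell, and it was called higher under all 14 alternatives. Of its 2073 exonic bases, 71 lie opposite exons of Mindy1, whose highest value was 144. Whether the counting used strand is not given in the sources used here. On the same strand, 6330562C20Rik overlaps 94 of the exonic bases of Anxa9, which strand cannot separate. The part of these overlaps in the values of Anxa9 was not tested. Anxa8 stood at 0.0138 to 0.135 over the 6 libraries, Anxa10 was listed at 0 in each, and Anxa13 was not found by its symbol.

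Genes whose products bind annexins were followed next. All 7 of a list of partners (S100a10, S100a11, S100a6, S100a4, Ahnak, Pdcd6 and Sri) were called lower, with a median log2 fold change of -0.38, where 31.3% of all genes were lower. S100a10, the light chain of the annexin A2 complex, had values of 251, 262 and 241 among libraries labelled WT, against 211, 212 and 209 among those labelled Sdc1-/-. Its fall by 0.25 on the log2 scale (limma adjusted p = 8.4e-04) was smaller in size than that of Anxa2. S100a11, which binds the head of annexin A1, went from 492 ± 5.20 to 401 ± 9.24 (SD, n = 3 per group), in log2 terms -0.29. S100a6, a partner of several annexins, had the largest fall of the list on the scale of log2(value + 1), from 1139 ± 44.1 to 414 ± 12.6 (SD, n = 3 per group), in log2 terms -1.46. S100a4, which also binds annexin A2, had a log2 fold change of -0.85, Ahnak, a giant scaffold of the annexin A2 complex, of -0.77 at a level of 0.60 to 2.10 (2.75-fold lower without the added 1, as was S100a6), and Sri (sorcin), a partner of Anxa7, of -0.38. Pdcd6, the calcium sensor ALG-2 that binds Anxa7 and Anxa11, had the smallest, -0.12 (adjusted p = 0.0285 from limma), and with all library sums brought to 1000000 it was 0.03 and the list had 6 lower genes. Pdcd6 also missed the threshold without replicate 1 of WT (limma adjusted p = 0.0877) and without replicate 3 of Sdc1-/- (limma adjusted p = 0.0842). Its call was lost as well after quantile normalization (-0.03, limma adjusted p = 0.508), with no minimum mean and without the variance trend.

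The ratio of an annexin to its partner, also free of the scaling, was compared in 3 pairs. Anxa2 stood at 0.977, 0.929 and 0.967 times S100a10 among libraries labelled WT, against 0.598, 0.583 and 0.585 times among those labelled Sdc1-/-. Anxa1 stood at 0.707, 0.714 and 0.667 times S100a11 and then at 0.367, 0.396 and 0.386 times. Anxa11 stood at 0.632, 0.614 and 0.672 times Pdcd6 and then at 0.386, 0.384 and 0.413 times, values that depend on its split of reads with Gm2260. In each pair all 3 ratios of the libraries labelled Sdc1-/- were below all 3 of WT, with log2 differences of -0.70, -0.86 and -0.70. The exact permutation test gave p = 0.1 for each (two-sided, adjusted p = 0.1 over the 3), the smallest p that 3 against 3 libraries allow.

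Of the 7 formyl peptide receptor genes, through which annexin A1 signals, Fpr1 and Fpr2 passed the minimum mean and both were called lower. Among all genes tested, 31.3% were lower. Fpr2, the main receptor of annexin A1, had values of 10.5, 10.9 and 10.96 among libraries labelled WT, against 2.71, 2.64 and 2.73 among those labelled Sdc1-/-. Its groups were 3.997-fold apart, with -1.67 ± 0.048 on the scale of log2(value + 1) (± SE, limma adjusted p = 9.7e-07). Fpr1 stood at 3.70, 3.72 and 3.63 and then at 0.85, 1.26 and 0.95, with a log2 fold change of -1.22. Fpr3 and Fpr-rs3 were at or below 0.0506 in every library, and Fpr-rs4, Fpr-rs6 and Fpr-rs7 were listed at 0.

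Of the 9 genes of plasminogen activation, the system that annexin A2 gathers at the surface, 6 were tested, 5 were lower and 0 higher, where 31.3% of all genes tested were lower. Serpinb2, an inhibitor of urokinase, had a log2 fold change of -1.06, falling from 9.78 ± 0.41 to 4.18 ± 0.57 (SD, n = 3 per group). Serpine2, Plaur, Plau and Plgrkt were named with their values seen. Serpine2, an inhibitor of plasminogen activators, had a log2 fold change of -0.39. Plaur, the urokinase receptor, went from 24.7 ± 1.68 to 12.6 ± 1.10, and Plau, urokinase itself, from 1.36 ± 0.081 to 0.78 ± 0.11 (SD, n = 3 per group). Plgrkt, a plasminogen receptor, had a log2 fold change of -0.09 and was not called, and Plg, plasminogen, was listed at 0.

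Of 17 genes of membrane repair, including the ESCRT-III filament proteins that close wounds, 14 were tested, 9 were lower and 1 higher, where 60.7% of all genes tested were called, but the split was 5 lower and 2 higher with all library sums brought to 1000000. The 2 largest falls were those of Chmp2b and Chmp3, with log2 fold changes of -0.40 and -0.37, and the gene that rose was Chmp7, with 0.14. Of 13 genes that flip phosphatidylserine between the leaflets, the lipid that annexin A5 binds, 10 were tested, 1 was lower and 2 higher, 3 of 10 called against the same 60.7%. Ano6, a calcium-activated scramblase, had a log2 fold change of -0.30, Plscr3 of 0.15 and Atp8a1, a flippase, of 0.24. Both rises missed the threshold without replicate 2 of WT and without any 1 of the 3 replicates of Sdc1-/-, that of Atp8a1 also without replicate 3 of WT, and with a sum of 1000000 there were 4 rises. Of 8 phospholipase A2 genes, a family of which annexin A1 is known to restrain only some enzymes, 5 were tested. Of these, 2 were lower and 2 higher, 4 of 5 called against 60.7%. Pla2g4a, named with its values seen, was the 1 not called, with a log2 fold change of 0.19 (limma adjusted p = 0.0620). Pla2g6 rose from 4.53 ± 0.028 to 8.86 ± 0.49 and Pla2g7 fell from 2.57 ± 0.54 to 0.74 ± 0.16 (SD, n = 3 per group). Pla2g15 had a log2 fold change of 0.16, and Pla2g12a of -0.15, a call that was lost without replicate 1 or 3 of WT and without any 1 of the libraries labelled Sdc1-/-, with an adjusted p of 0.0842 to 0.139 from limma. The call of Pla2g12a was also lost with all library sums brought to 1000000, where its log2 fold change was -0.0065 (limma adjusted p = 0.928), after quantile normalization (-0.07, limma adjusted p = 0.347), with no minimum mean and without the variance trend.

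**Figure D4:**
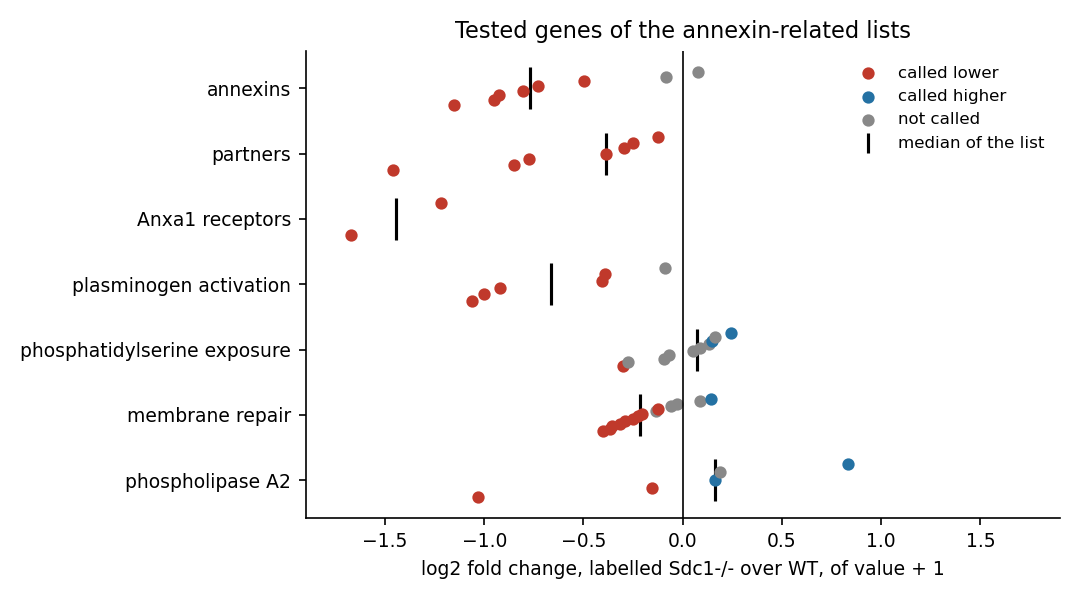
Each point is a tested gene, placed by its log2 fold change of value + 1 (libraries labelled Sdc1-/- over WT, 3 in each group), and the vertical mark is the median of its list. Annexins, partners, receptors and plasminogen genes have medians of -0.77, -0.38, -1.45 and -0.66, membrane repair genes one of -0.22, while phosphatidylserine and phospholipase A2 genes have medians of 0.07 and 0.16.

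Markers of mature myeloid cells moved with these annexins. The counts below stand beside 31.3% of all genes tested that were called lower and 29.3% called higher. All 12 markers of mature neutrophils were called lower, with a median log2 fold change of -1.62, and their summed value as deposited was 13171 to 14105 among libraries labelled WT, against 4735 to 4871 among those labelled Sdc1-/-. Of 10 markers of monocytes and macrophages 9 were tested, 8 lower and 1 higher, with sums of 96.1 to 99.1 and of 44.5 to 45.5. The 1 higher was Cx3cr1, with a log2 fold change of 0.27. Of 7 markers of mast cells and basophils 6 were tested and all 6 were lower, with sums of 427 to 436 and of 157 to 160, and Tpsb2 had a mean below 1. Erythroid markers were lower in 7 of 9 genes and higher in 2, with sums of 9526 to 10231 and of 5296 to 5698, and megakaryocyte markers lower in 6 of 7 tested genes and higher in 1, with sums of 523 to 552 and of 521 to 533. In bulk RNA, fewer cells of a type and less RNA per cell cannot be told apart, and the part of these cells in the values of the annexins, their partners and receptors was not tested.

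The 3 tested genes with the pattern most like that of Anxa1 over the 6 libraries, by the root mean square difference of centred log2(value + 1), were Padi3 (0.026), a peptidylarginine deiminase, Csf2rb2 (0.035), a receptor subunit for interleukin 3, and Crybg1 (0.035). Padi3 stood at 6.35, 6.01 and 5.59 among libraries labelled WT, against 1.99, 2.18 and 2.02 among those labelled Sdc1-/-. The likeness holds on the scale with the added 1, which understates the changes of low genes. Without the added 1, Padi3, Csf2rb2 and Crybg1 were 2.90-, 2.58- and 2.595-fold lower, against 2.23-fold for Anxa1. Within the family, Anxa2 was nearest to Anxa1, at a root mean square difference of 0.107, and Anxa5 farthest, at 0.617. Of all genes tested, 126 lay within 0.1 of Anxa1, and these patterns share the same 6 libraries and the same split into groups.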

How the data were processed

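RNA was measured in 6 libraries of Lin- bcCML, 3 labelled WT and 3 labelled Sdc1-/-, each made from 150 ng of RNA with a stranded kit and read as single ends of 75 bases. The authors ran kallisto and sleuth 0.30.0 on mm10, per the submitters' processing notes, and the values the authors deposited per gene are a signal, TPM rescaled between libraries. The transcriptome and the version of kallisto are not given in the sources used here. A second deposited table holds the authors' own test results and was not used. Symbols were found for 35454 of the 36083 genes.

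Values were taken as log2(value + 1), genes averaging under 1 over all 6 libraries were left out, and limma 3.58.1 under R 4.3.3 fitted the remaining 12155 by group alone, with trended variances and Benjamini-Hochberg adjustment at 0.05. Fold changes on this scale understate those of low genes. The design named TPM as the unit, and the same test was kept for these rescaled values. Other steps used Python 3.11.15 and pandas 2.3.3. Named were the 8 members, the remaining annexins, all partners and receptors, of the other lists all called genes or the 2 largest rises and falls, and the 3 genes most like Anxa1. The members and lists were chosen with earlier results of these data known. The 14 alternatives changed the pseudocount, the minimum mean, the scaling, the trend, the block and the libraries used. Positions are from GENCODE M21 and promoter sequences from RefSeq. Some genes that the rule names are not reported here.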

Additional observations from a re-analysis of the deposited data

How the results depend on the processing

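Anxa1, Anxa2, Anxa3, Anxa4, Anxa6 and Anxa11 kept their direction and their call under all 14 alternatives. A pseudocount of 0.1 enlarged the changes of low genes, of Pla2g7 from -1.03 to -1.67, of Ahnak from -0.77 to -1.34 and of Fpr1 from -1.22 to -1.775. Setting each library to a total of 1000000 moved the median change over all genes on the log2 scale from -0.01 to 0.12, left 2367 genes called lower in place of 3810 (30.9% of calls in place of 51.7%), Anxa5 rose to 0.23 and was called, Anxa7 turned to 0.0598 and Pdcd6 to 0.0251, and the members called higher were 1 instead of 0. After quantile normalization Anxa5 stood at 0.16 and was called, again as 1 member higher. Anxa7 ran from -0.11 to -0.06 when a library was left out, and passed the threshold without replicate 2 of WT. The cause of these shifts was not tested beyond the change of scaling itself. The deviations of equally numbered libraries correlated at 0.151, -0.008 and 0.018, and 0.151 was the highest over all combinations of a WT and a Sdc1-/- library. Correlations this weak neither show nor exclude a pairing by number. With the replicate block 6 members were lower, 0 higher, and 7624 instead of 7374 genes were called. In the deviations from the group means, replicates 2 and 3 of WT both correlated best with replicate 3 of Sdc1-/-, at only 0.142 and 0.018. A minimum mean of 5 removed Fpr1, Ahnak, Pla2g7, Padi3 and Sdc1 from the test, among others. Read depth is unknown, so no limit from counting could be given for genes near 0, such as Anxa8.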
